A study of Mus musculus with 48 samples.

Results

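The 8 genes described here are Cyp2f2, Hal, Sds, Gls2, Aldh1b1, Hsd17b6, Hsd17b13 and Etnppl, a set chosen by name as genes that hepatocytes around the portal vein express at high levels, out of 46517 mouse genes counted. All 8 were found in the tables. Bulk RNA was sequenced from 16 biological samples, each as 3 technical libraries. They comprised 3 livers of donor mice, 3 preparations of freshly isolated primary hepatocytes, 2 samples of spheroids formed from such hepatocytes and kept in vitro, 5 explants and 3 irises that carried no graft. An explant was a spheroid that had engrafted in the anterior chamber of the eye of a recipient mouse, taken with the iris around it 2 months after transplantation. Every sample was labelled wild-type albino and C57BL/6N. The study's methods describe adult mice of both sexes, and neither the sex nor the age of a single donor is given. The same methods list other strains. The hepatocyte preparations were enriched for hepatocytes by perfusion with collagenase and a density gradient, and still held Kupffer cell markers, at 101 to 199.6 TPM in sum. Nothing says which animals the samples of a group came from, so the p-values measure the spread between these samples.

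Blood enters the liver lobule at the portal tract and leaves at the central vein, and hepatocytes along this path differ in what they express. Periportal cells, which receive the most oxygen, carry out gluconeogenesis, the urea cycle and the breakdown of amino acids. Pericentral cells express glutamine synthetase and many drug-metabolising enzymes under Wnt signalling. This order, called zonation, depends in part on position in the tissue, so periportal genes are a common readout of whether hepatocytes outside the liver keep a zonal program.

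Hal, Sds and Gls2 encode enzymes of amino acid breakdown. Hal (histidine ammonia-lyase, first step of histidine degradation) lies at chr10:93488768-93519304 on the plus strand of mm10, the build of the files. Sds (serine dehydratase, which turns serine into pyruvate) lies at chr5:120476526-120483932, plus strand. Gls2 (liver-type glutaminase, which releases ammonia from glutamine) lies at chr10:128194457-128210004, plus strand. Cyp2f2 (a cytochrome P450 that oxidises naphthalene) is at chr7:27119909-27133660, plus strand, and Aldh1b1 (a mitochondrial aldehyde dehydrogenase) at chr4:45799022-45804604, plus strand. Hsd17b6 (a dehydrogenase that acts on androgens and retinol) is at chr10:127990941-128000678, minus strand. Hsd17b13 (a protein of lipid droplets) is at chr5:103955440-103977410, minus strand. Etnppl (a lyase that breaks down phosphoethanolamine) is at chr3:130617448-130637521, plus strand. The counts cover the exons of each gene in the gene models used for counting. For Hsd17b6 that model has 1392 exonic bases, and both RefSeq starts lie outside it. Their promoter windows are at chr10:128007562-128007861 and chr10:128007459-128007758, so an exon at these starts was not counted.

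Promoters are shown for the pair of genes that varied most closely with the other members, Cyp2f2 and Hal, and for a pair that did not move alike in spheroids, Etnppl and Hsd17b13. Each line gives the 250 bases before the start site in RefSeq on GRCm38.p6, written 5′ to 3′ along the gene, at chr7:27119705-27119954 (plus strand), chr10:93488518-93488767 (plus), chr3:130617325-130617574 (plus, the second of 2 starts listed) and chr5:103977389-103977638 (minus). Capitals mark matches to the motifs searched.
Cyp2f2: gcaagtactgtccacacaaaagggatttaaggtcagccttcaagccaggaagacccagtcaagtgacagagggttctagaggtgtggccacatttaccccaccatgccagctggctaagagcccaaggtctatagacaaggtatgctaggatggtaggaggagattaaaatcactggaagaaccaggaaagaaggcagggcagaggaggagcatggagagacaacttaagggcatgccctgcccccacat
Hal: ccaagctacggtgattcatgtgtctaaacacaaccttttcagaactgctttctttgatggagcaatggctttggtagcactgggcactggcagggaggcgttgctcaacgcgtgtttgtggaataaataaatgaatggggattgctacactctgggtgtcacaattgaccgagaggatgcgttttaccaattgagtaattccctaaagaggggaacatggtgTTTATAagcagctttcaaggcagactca
Etnppl: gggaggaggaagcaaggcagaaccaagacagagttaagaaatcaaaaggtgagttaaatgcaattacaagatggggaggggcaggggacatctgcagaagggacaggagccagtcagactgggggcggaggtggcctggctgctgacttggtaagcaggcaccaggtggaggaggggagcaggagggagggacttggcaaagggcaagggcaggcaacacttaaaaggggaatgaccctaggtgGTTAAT
Hsd17b13: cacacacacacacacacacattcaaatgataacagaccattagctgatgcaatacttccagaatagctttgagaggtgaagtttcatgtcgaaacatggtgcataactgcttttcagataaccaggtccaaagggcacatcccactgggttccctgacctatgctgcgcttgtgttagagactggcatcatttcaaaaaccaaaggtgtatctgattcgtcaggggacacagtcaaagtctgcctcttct
Windows of 300 bases, from 250 before to 50 after the start, were present for 6 of the 8 genes (8 windows in all). They were searched on both strands for the letters TATAAA (the box bound by TBP), CTTTGAA (TCF/LEF), CAAAGTCCA (HNF4), GTTAAT (HNF1), TTGCGCAA (C/EBP) and TGACGTCA (CREB). The matches were TATAAA on the opposite strand in Hal, 28 bases before the start, and GTTAAT in Etnppl, 6 bases before the start. Over all 32851 windows, 13.6% held TATAAA, 5.14% CTTTGAA, 0.475% CAAAGTCCA, 7.1% GTTAAT, 0.183% TTGCGCAA and 1.79% TGACGTCA. The motifs searched were therefore not a feature that the members share in these windows.

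The total count per sample was 2718518 to 3573075 in hepatocyte preparations, 3523171 to 3871404 in livers, 3247327 and 3447643 in spheroids in vitro, 4596550 to 4881817 in irises and 5449589 to 6789648 in explants. Levels are given as TPM, a share of the library scaled by gene length. In explants, the iris share of the RNA was removed from the TPM by the formula of the study's methods. The shares were 82, 68, 81, 72 and 59% in explants 1, 2, 4, 5 and 6, so that 1 TPM measured becomes 2.44 to 5.56 TPM. The samples were compared on 12 hepatocyte reference genes such as Hnf4a, Asgr1 and Apob. Their median log2 difference from the liver mean lay between -0.03 and 0.04 in livers and preparations, between -0.45 and -0.02 in corrected explants, and at -0.59 and -0.38 in the spheroids in vitro. The iris share was estimated from iris and liver profiles, and the correction scales up what remains. Values of the explants near the liver mean are therefore no independent check of their identity. In bulk RNA, fewer cells of a kind and less RNA per cell cannot be told apart.

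**Figure D1:**
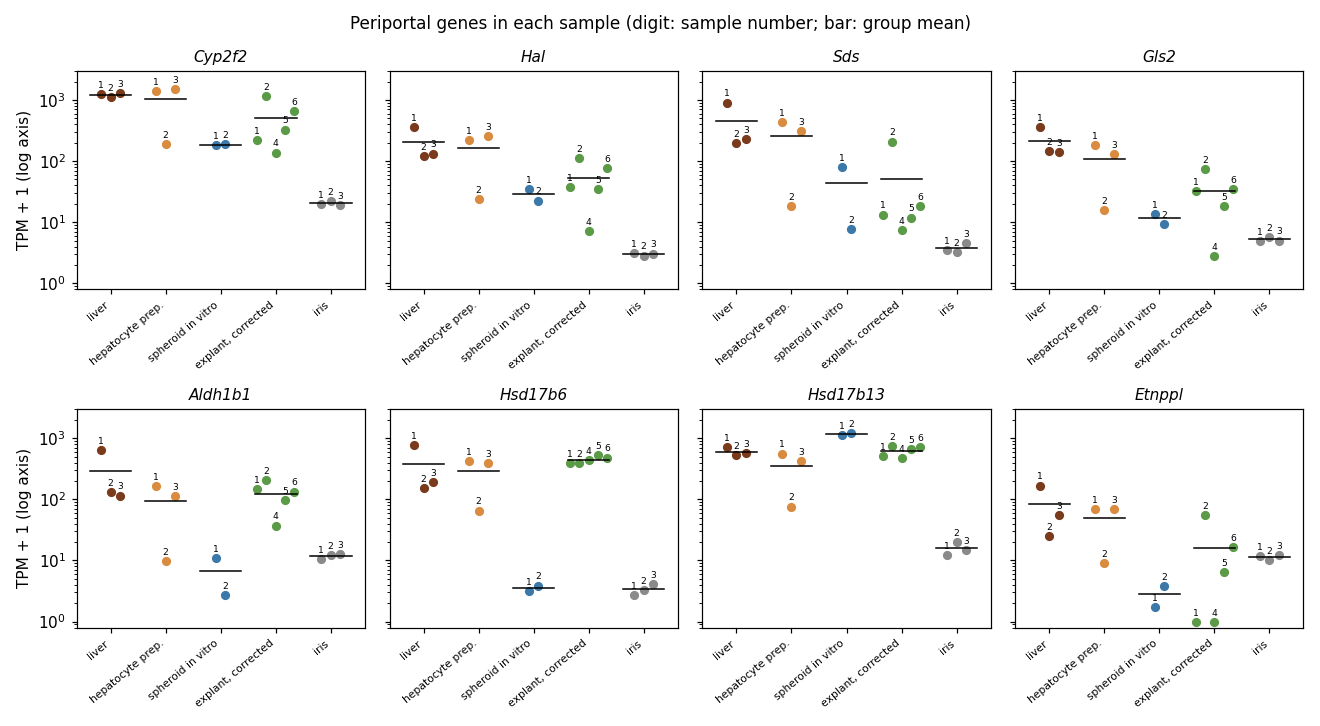
TPM + 1 of the 8 periportal genes on a log axis, 1 panel per gene, with 1 point per sample (digits are sample numbers) and the group mean as a bar, for livers, hepatocyte preparations, spheroids in vitro, corrected explants and irises. Hepatocyte preparation 2 was the lowest of the preparations for every gene, and Hsd17b13 was the only member above the livers in both spheroid samples.

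Livers held all 8 genes well above the irises. By mean TPM the order was Cyp2f2 (1213 ± 81.6, SD, n = 3), Hsd17b13 (604 ± 90.9), Sds (443 ± 399), Hsd17b6 (371 ± 350), Aldh1b1 (293 ± 297), Gls2 (214 ± 126), Hal (204 ± 135) and Etnppl (81.9 ± 75.2). The large SDs of 6 genes came with liver 1. Between Sds and Hal, neighbours in this order differed by less than these SDs. In irises, 7 genes were at 0.627% to 3.72% of the liver mean and Etnppl at 12.7%, with 10.4 TPM.

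The livers and the hepatocyte preparations each held a sample that stood apart in these genes. Sds was at 904, 197 and 229 TPM in livers 1, 2 and 3, and at 434, 17.4 and 306 TPM in preparations 1, 2 and 3. Liver 1 was thus 4.24-fold above the mean of the other livers, and preparation 2 was 21.3-fold below the mean of the other preparations. Aldh1b1 was at 636, 130 and 114 TPM in the livers and at 161, 8.64 and 112 TPM in the preparations. Liver 1 was 5.21-fold above and preparation 2 was 15.8-fold below the others of its group. Hsd17b6 was at 774, 150 and 190 TPM in livers and at 422, 64.5 and 388 TPM in preparations, with the same samples at the extremes.

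Hal was at 359, 121 and 132 TPM in livers and at 217, 22.6 and 257 TPM in preparations. Gls2 was at 360, 144 and 139 TPM in livers and at 183, 14.6 and 128 TPM in preparations. Etnppl was at 167, 23.7 and 55.2 TPM in livers and at 67.3, 8.17 and 67.6 TPM in preparations. In each of these genes liver 1 was the highest liver and preparation 2 lay below every liver. Cyp2f2 and Hsd17b13 varied less between livers. Cyp2f2 was at 1239, 1121 and 1278 TPM in livers and at 1418, 192 and 1525 TPM in preparations. Hsd17b13 was at 707, 534 and 572 TPM in livers and at 560, 75.2 and 426 TPM in preparations. Liver 1 did not stand apart in these 2 genes, whereas preparation 2 did, being 7.67-fold and 6.57-fold below the mean of the other preparations.

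The low values of preparation 2 were seen in each of its libraries. For Cyp2f2 they held 174, 178 and 137 counts, and for Hsd17b13 66, 67 and 71. In preparation 2, all 8 members were over 2-fold below the liver mean, with a median log2 difference of -2.95. The 12 other periportal genes, such as those of the urea cycle and gluconeogenesis, had a median of -0.74 and 5 were over 2-fold below. Among them, Cdh1 (E-cadherin) was at 0.695 TPM in preparation 2 against 24.2 and 27.9 TPM in preparations 1 and 3. The 14 pericentral genes had a median of 0.78 with 5 over 2-fold above, and the hepatocyte reference genes had 0.03. Glul, which encodes glutamine synthetase, was at 947 TPM in preparation 2 against 231 and 141 TPM in preparations 1 and 3, and Rhbg, an ammonium transporter, at 77.9 against 12.7 and 9.75 TPM. Immediate early genes had their highest median in preparation 2 (4.22, against 2.65 and 3.74), and their part in the low periportal values was not tested.

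In liver 1, by contrast, 5 of the 8 members were over 2-fold above the liver mean, with a median log2 difference of 1.20. The other periportal genes had a median of 0.34 there and the pericentral genes -0.20. Glul was at 205 TPM in liver 1 and at 520 and 463 TPM in livers 2 and 3. Within their groups, preparation 2 and liver 1 thus stood at opposite ends for the members and for Glul. The whole lists are drawn by sample.

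**Figure D2:**
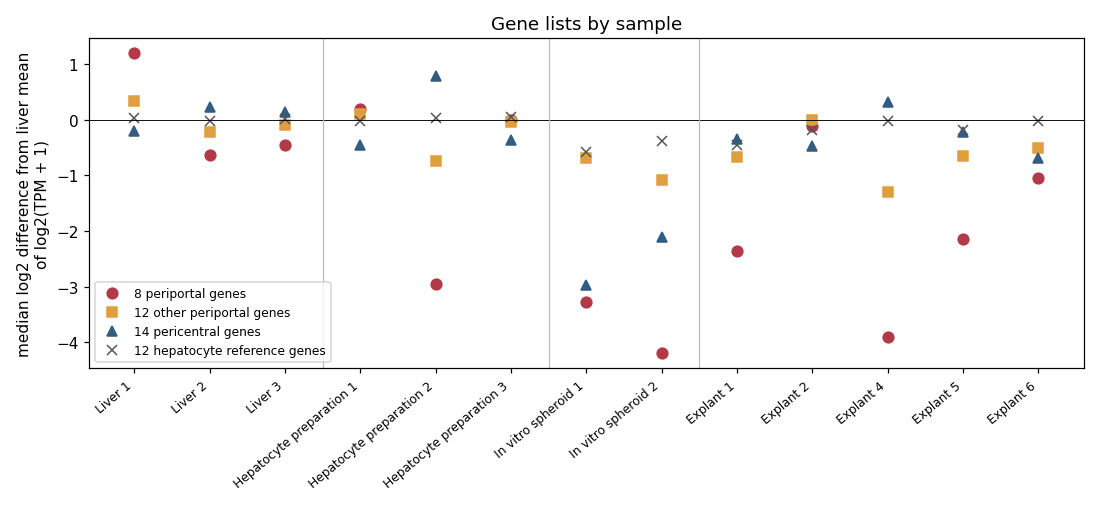
Median log2 difference from the liver mean, on the scale log2(TPM + 1), for the 8 periportal genes, 12 other periportal genes, 14 pericentral genes and 12 hepatocyte reference genes in each of 13 samples without the irises (explants corrected). In hepatocyte preparation 2 the periportal genes lie at -2.95 and the pericentral genes at 0.78, while the reference genes lie at 0.03.

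Between hepatocyte preparations and livers, no member passed the test. The comparison asks what isolation of the cells does to these transcripts. Here and below, genes count as called where the log2 fold change exceeded 1 in either direction and p stayed under 0.05 after Benjamini-Hochberg adjustment. By edgeR's quasi-likelihood test, 0 of 8 members were called, 0 had an unadjusted p under 0.05, and DESeq2 called 0 as well. Over all 12236 genes tested, 0.409% were called higher and 2.31% lower. The median log2 fold change was -0.62 over the members and 0.01 over all genes. It was largest for Aldh1b1 (-1.47 ± 0.91, SE, adjusted p = 0.347) and smallest for Cyp2f2 (-0.06 ± 0.59, adjusted p = 0.959). All 8 members overlapped between the groups. Without liver 1 and preparation 2 together, an alternative chosen after seeing the data, the median was 0.67, and Hal (log2 fold change 1.04, adjusted p = 0.0324) and Hsd17b6 (1.38, adjusted p = 0.00912) were called higher in preparations. In that fit 29 of 12321 genes were called higher and 98 lower. The 2 samples left out were extremes of their groups in most members, so this fit cannot test a rise of the members. Leaving out either sample alone called 0 members. Without liver 1, 28 of 12397 genes were called higher and 115 lower. Without preparation 2, 8 of 12767 were called higher and 7 lower, so 0 of 8 says little about the members. With all samples, immediate early genes were called higher in preparations for 6 of 7 genes (median 3.71), and macrophage markers lower for 2 of 5 (summed TPM 101 to 182 in preparations and 367 to 705 in livers). Stellate cell markers were lower for 4 of 5 (median -2.72) and cholangiocyte markers for 3 of the 4 tested (-3.89). The part of these lists in the members' values was not tested.

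Spheroids kept in vitro showed the widest divergence within the set. Hsd17b6 was at 2.18 and 2.89 TPM in the 2 samples, from 4 and 5 counts, while the irises held 1.72 to 3.05 TPM from 4 to 7 counts. The level in spheroids was therefore no higher than in a tissue without hepatocytes. Aldh1b1 and Etnppl also had lower means in spheroids (5.84 and 1.78 TPM) than in irises (10.9 and 10.4 TPM). Hsd17b13 was at 1128 and 1194 TPM, from 3201 counts in each sample. That is 192% of the liver mean, above every liver and every preparation. The 3 libraries of the first sample held 1143, 1027 and 1031 counts and those of the second 1152, 970 and 1079, so equal sums came from unequal parts.

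The other members were low. Aldh1b1 was at 9.92 and 1.75 TPM and Etnppl at 0.736 and 2.82 TPM, or 1.99% and 2.17% of the liver mean. These values rest on 30 and 5 counts of Aldh1b1 and on 8 and 29 counts of Etnppl. Gls2 was at 12.7 and 8.34 TPM. Hal was at 34.1 and 21.6 TPM and Cyp2f2 at 184 and 187 TPM, or 13.7% and 15.3% of the liver mean. Sds was at 79.4 TPM in the first sample and 6.65 TPM in the second, so that its values differed more between these samples than those of Hal, Gls2 or Cyp2f2.

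Against livers, 7 of 8 members fell in the spheroids in vitro and 0 rose by edgeR (11% of 12959 genes were called lower and 8.24% higher). The 7 lay below every liver, and Hsd17b13 lay above every liver. Here and in the other comparisons, the share of all genes that separated in this way was not counted. The log2 fold changes ran from -7.25 ± 1.01 (SE) for Hsd17b6 (adjusted p = 0.0026) through -5.74 for Aldh1b1, -5.60 for Etnppl, -4.46 for Gls2, -3.51 for Sds and -2.99 for Hal to -2.83 ± 0.19 for Cyp2f2 (adjusted p = 0.000214). Hsd17b13 had a log2 fold change of 0.83 ± 0.19, which had an adjusted p of 0.0141 but did not reach the fold change limit. With counts scaled to the reference genes instead, Hsd17b13 was called higher (1.48, adjusted p = 0.000203). In that fit 3909 of 12959 genes were called higher and 674 lower, with a median of 0.68 over all genes. Without that scaling, the median over the members was -3.98 and over all genes 0.01. Of the other periportal genes 5 of 12 fell and 0 rose. They were Pigr (log2 fold change -4.79), Uroc1, Pck1, Prodh and Ass1, while Cps1 was at -0.23 and Arg1 at 0.14 without passing. Pericentral genes fell as well, 11 of 14 with a median of -3.46, among them Cyp2e1 (-4.25), which oxidises ethanol. Of the reference genes 2 of 12 fell, with a median of -0.62. The summed Kupffer cell markers were at 469 to 511 TPM in spheroids against 204 to 371 TPM in livers, with 1 of 5 called higher. Immediate early genes rose for 5 of the 6 tested (median 2.54), while 4 of 5 stellate cell markers (-2.34) and 4 of 5 sinusoidal endothelial markers (-1.66) fell. The part of these lists in the differences was not tested.

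Against the hepatocyte preparations, 6 of 8 members fell in spheroids and 0 rose by edgeR (9.11% of 12247 genes were called lower and 8.13% higher). Hsd17b6 had a log2 fold change of -7.15, Etnppl -5.06, Aldh1b1 -4.35, Gls2 -3.71, Hal -2.93 and Cyp2f2 -2.83. Sds did not pass (-2.95 ± 1.24, SE, adjusted p = 0.119), nor did Hsd17b13 (1.39 ± 0.65, adjusted p = 0.154). Hsd17b13 was called higher with counts scaled to the reference genes (2.23, adjusted p = 0.0108). In that fit 4725 of 12247 genes were called higher and 506 lower, with a median of 0.86 over all genes. Without a filter on low counts all 8 members were called, Hsd17b13 higher and 7 lower (1406 of 24387 genes were called higher and 1357 lower). With the filter and without that scaling, the median was -3.33 over the members and 0.01 over all genes. Cyp2f2, Gls2, Hsd17b6 and Etnppl lay below every preparation, whereas Hal, Sds and Aldh1b1 overlapped with the preparations through preparation 2. The comparison uses the same spheroids as that with the livers. The count was 3 without preparation 1, 2 without preparation 3 and 7 without preparation 2. In those fits 1024 of 12018, 852 of 12115 and 984 of 12137 genes were called lower, and 970, 747 and 896 higher. With 1 spheroid sample left out, the log2 fold change of Sds was -5.45 (without the first) or -2.12 (without the second).

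**Figure D3:**
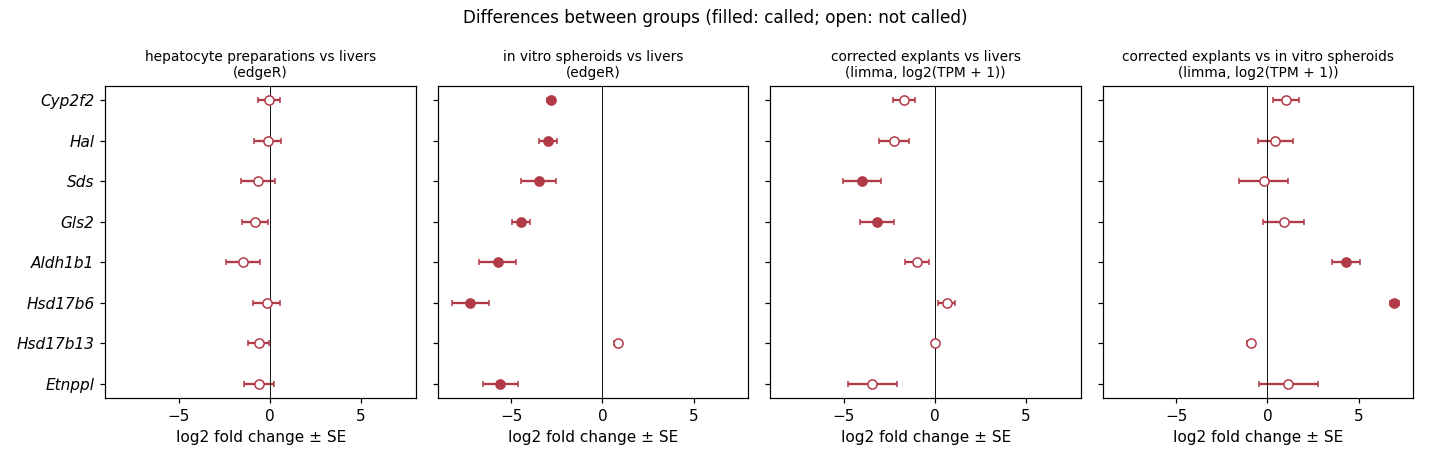
Log2 fold change with its standard error for the 8 periportal genes in 4 comparisons, filled where the gene was called. Hsd17b6 is at -7.25 in spheroids in vitro against livers and at 6.97 in corrected explants against spheroids in vitro.

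In explants before correction, 5 of 8 members rose over the irises and 0 fell by edgeR (6.16% of 16764 genes were called higher and 0.316% lower). The comparison asks whether transcripts of hepatocytes are found in the grafted eye tissue. Hsd17b6 was at 72.0, 126, 85.2, 148 and 199 TPM in explants 1, 2, 4, 5 and 6 (log2 fold change 5.84 ± 0.55, SE, adjusted p = 0.000376). Hsd17b13 was at 103, 251, 102, 197 and 298 TPM against 11.4 to 19.04 TPM in irises (3.82 ± 0.50, adjusted p = 0.00159). Cyp2f2 was at 55.6, 382, 41.7, 105 and 281 TPM against 18.3 to 20.9 TPM (3.31 ± 0.84, adjusted p = 0.0331). Every explant lay above every iris in these 3 genes, and also in Hal (3.31, adjusted p = 0.0417) and Aldh1b1 (2.14, adjusted p = 0.0238).

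Sds had 14, 226, 12, 20 and 31 counts in the explants against 6 to 10 in irises, and its log2 fold change of 2.81 did not pass (adjusted p = 0.161). Gls2 was also not called (1.70, adjusted p = 0.0994). Etnppl was at 8.17, 24.5, 7.38, 9.02 and 12.4 TPM in explants and at 10.9, 9.17 and 11.1 TPM in irises, with overlapping groups (0.36 ± 0.40, adjusted p = 0.601). The median was 3.06 over the members and 0.01 over all genes. With 1 iris left out, whichever it was, 2 members were called, and without explant 2 the count was 3. The calls over all genes fell too. Genes called higher were 554 of 17244, 604 of 17273 and 575 of 17208 without iris 1, 2 and 3, and 822 of 16600 without explant 2.

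After removal of the iris share, Hal and Gls2 lay below every liver in all 5 explants, and the other 6 members overlapped with the livers. Hsd17b6 was at 389, 389, 438, 521 and 482 TPM in explants 1, 2, 4, 5 and 6, and the explants varied less than the livers or the preparations (444 ± 58.1, SD, n = 5, against 371 ± 350 and 292 ± 197). Hsd17b13 was at 503, 753, 475, 667 and 706 TPM, or 103% of the liver mean. Aldh1b1 was at 146, 206, 36.2, 96.4 and 133 TPM, which overlapped with livers 2 and 3.

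The remaining members differed widely between explants. Cyp2f2 was at 221, 1152, 137, 326 and 659 TPM. Hal was at 35.98, 113, 6.15, 33.4 and 76.1 TPM, and Gls2 at 31.1, 72.4, 1.78, 17.2 and 34.1 TPM. For these 3 genes explant 2 was the highest, explant 6 the next and explant 4 the lowest. Sds was at 12.3, 207, 6.35, 10.9 and 17.3 TPM, so only explant 2 reached the level of livers 2 and 3. Etnppl was at 54.4, 5.52 and 15.4 TPM in explants 2, 5 and 6, and was set to 0 in explants 1 and 4, where the iris term exceeded the value measured.

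Explants differed in the accompanying gene lists too. Explant 4, lowest in 7 members, counting the tie at 0 for Etnppl, had the highest median of the pericentral genes (0.32 against -0.70 to -0.22 in the other explants). The 14 pericentral genes were split there, from -5.50 to 3.99, with 3 over 2-fold above the liver mean and 5 over 2-fold below. Cyp2e1 was at 4486 TPM in explant 4 against 1179 to 1728 TPM in the others. The summed macrophage markers of explant 4 were the lowest, at 1202 TPM, while explants 2 and 6 had 3886 and 4145 TPM and livers 367 to 705 TPM. The Kupffer cell marker Clec4f was at 0 in explants 4 and 5, but the 5 Kupffer cell markers summed to 38.2 and 66.1 TPM there (204 to 371 TPM in livers). The gluconeogenic Pck1 was at 693 TPM in explant 2 and at 48.02, 39.3, 160 and 195 TPM in explants 1, 4, 5 and 6. The part of these cells, and of the iris share, in the differences between explants was not tested.

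Against livers, 2 of 8 members fell in corrected explants and 0 rose, by limma on log2(TPM + 1) (3.01% of 21002 genes were called lower and 11.8% higher). They were Sds (log2 fold change -4.01 ± 1.03, SE, adjusted p = 0.0301) and Gls2 (-3.20 ± 0.93, adjusted p = 0.0477). Sds in explant 2 lay within the range of the livers. Hal (-2.24, adjusted p = 0.101), Cyp2f2 (-1.68, adjusted p = 0.0936) and Etnppl (-3.44, adjusted p = 0.123) were not called. Aldh1b1 (-0.98 ± 0.68) and Hsd17b6 (0.65 ± 0.47) did not pass either, and Hsd17b13 had a log2 fold change of 0.03 ± 0.20 (adjusted p = 0.936). The median was -1.96 over the members and 0.61 over all genes. Summed iris markers after correction were still at 3682, 2199 and 2786 TPM in explants 1, 2 and 6 and at 326 and 302 TPM in explants 4 and 5, against 541 to 555 TPM in livers. Of the immediate early genes 5 of 7 rose (median 3.09), as did all 5 macrophage markers (2.47) and 1 of 5 cholangiocyte markers (1.70). Their part in the members' values was not tested. Two-sided exact permutation tests of each member, unadjusted, gave p = 0.0357 for Hal and for Gls2, and 0.0179 is the smallest that 5 samples against 3 allow. Without explant 2, 4 members were called (Cyp2f2, Sds, Gls2 and Etnppl). Without explant 1, without explant 5, without liver 2 or without liver 3 the count was 0, without explant 6 it was 1, and without liver 1 the single call was Hsd17b6, higher in explants (1.38, adjusted p = 0.00794). Over all genes, 641 of 20283, 569 of 20645, 201 of 21315 and 191 of 21354 were called lower in the fits with a count of 0, in that order. Without explant 2, 701 of 20829 genes were called lower, without explant 6 789 of 21096, and without liver 1 1524 of 21259 were called higher.

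The other periportal genes had 4 of 12 called lower and 2 higher in corrected explants against livers, with a median of -0.65. Prodh was among the former (log2 fold change -6.32, adjusted p = 0.0103), as was Pck1 (adjusted p = 0.0424). The urea cycle genes Cps1 (-0.42) and Arg1 (-0.46) did not pass. Of the pericentral genes 2 of 14 fell, with a median of -0.35, and of the reference genes 0 of 12 were called, with a median of -0.20. Prodh was at 159 to 182 TPM in irises and at 0 in explants 1, 2 and 4 after correction, so its value rests on the iris term.

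Against hepatocyte preparations, 0 of 8 members were called in corrected explants by limma, 0 had an unadjusted p under 0.05 and 0 had an exact permutation p under 0.05 (15.7% of 20726 genes were called higher and 3.28% lower). The median was -1.26 over the members and 0.75 over all genes. Sds had the most negative log2 fold change (-2.66 ± 1.28, SE) and Hsd17b13 the highest (1.22 ± 0.57). All 8 members overlapped, and preparation 2 lay below every explant for Hsd17b6, Hsd17b13 and Aldh1b1. Without explant 2 the count was 1 (3417 of 20537 genes were called higher and 760 lower). Without preparation 2 the count stayed at 0, with a median of -2.30 over the members and 0.77 over all genes. In that fit 5 of 8 members had an unadjusted p under 0.05 (of 21120 genes, 4176 higher and 1083 lower had such a p). The median over the members was -0.78 without preparation 1 and -0.69 without preparation 3.

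Against spheroids in vitro, 2 of 8 members rose in corrected explants and 0 fell by limma (5% of 21217 genes were called higher and 0.957% lower). Hsd17b6 had a log2 fold change of 6.97 ± 0.27 (SE, adjusted p = 7.74e-05), and Aldh1b1 4.30 ± 0.76 (adjusted p = 0.0156). Every explant lay above both spheroid samples in these genes. Low counts in spheroids limit both calls (4 and 5 of Hsd17b6, 30 and 5 of Aldh1b1). With 1 spheroid sample left out, Aldh1b1 was at 3.31 or 5.30. Hsd17b13 lay below both spheroid samples in every explant, with a log2 fold change of -0.93 ± 0.22 and an adjusted p of 0.0481, short of the fold change limit. Cyp2f2 (1.01 ± 0.73), Gls2 (0.90 ± 1.13), Hal (0.43 ± 0.97), Sds (-0.21 ± 1.37) and Etnppl (1.14 ± 1.61) overlapped and did not pass. The median was 0.96 over the members and 0.54 over all genes. The livers, preparations and spheroids set against the explants are the samples used above, and the explants are shared by the 3 comparisons.

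Enzymes that act beside the members were examined in a list of 16 partners and paralogs. Histidine degradation runs from Hal through Uroc1 and Amdhd1 to Ftcd. In spheroids in vitro Hal was at 13.7% of the liver mean and Uroc1 at 4.91%, whereas Amdhd1 was at 47.1% and Ftcd at 78.4%. Against livers Uroc1 (log2 fold change -4.49, adjusted p = 0.00117) and Amdhd1 (-1.18, adjusted p = 0.0259) fell by edgeR, and Ftcd did not pass (-0.47, adjusted p = 0.103). In corrected explants Uroc1 was at 56.4%, Amdhd1 at 60.2% and Ftcd at 58.1% of the liver mean, while Hal was at 25.9%. Uroc1 rose over spheroids in vitro (3.62, adjusted p = 0.0066 by limma), and Hal, Amdhd1 and Ftcd did not pass. In preparation 2 Hal was 10.5-fold and Uroc1 2.70-fold below the mean of the other preparations.

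**Figure D4:**
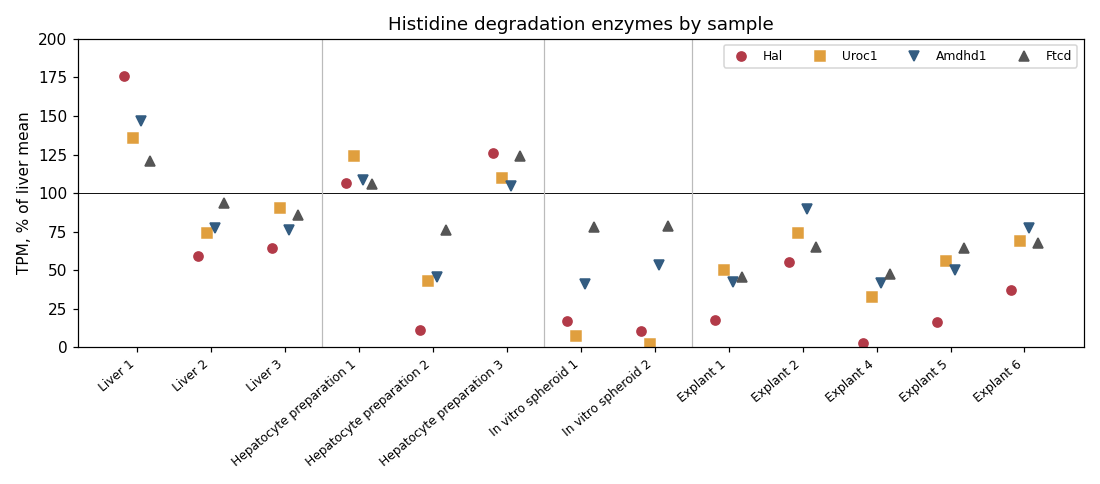
TPM of the histidine degradation enzymes Hal, Uroc1, Amdhd1 and Ftcd as a percentage of the liver mean, in 13 samples without the irises, with 1 point per gene and sample and the liver mean as a line at 100. In spheroids in vitro Hal and Uroc1 lie at group means of 13.7% and 4.91%, below Amdhd1 at 47.1% and Ftcd at 78.4%.

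Near Hsd17b6 on the chromosome lie its relatives Rdh16, Rdh7 and Rdh9, retinol dehydrogenases of the same family. In spheroids in vitro against livers, Rdh16 (log2 fold change -4.27, adjusted p = 0.00521) and Rdh9 (-2.87, adjusted p = 0.00566) fell with Hsd17b6, while Rdh7 did not pass (-0.36, adjusted p = 0.227). In corrected explants against spheroids in vitro, Rdh16 (3.11, adjusted p = 0.0392) and Rdh9 (3.52, adjusted p = 0.00572) rose by limma. Hsd17b11, the relative of Hsd17b13 at lipid droplets, did not pass against livers in spheroids in vitro (-0.45, adjusted p = 0.299) or in corrected explants (-0.15, adjusted p = 0.855). Over the whole list, 6 of 16 fell and 0 rose in spheroids in vitro against livers, and 1 fell in corrected explants against livers (Aldh2, -1.16).

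Across the 13 samples without the irises, members were compared with the mean of the other members after scaling each gene and subtracting the hepatocyte reference genes. Pearson's r was 0.94 for Cyp2f2, 0.93 for Hal, 0.92 for Gls2, 0.83 for Sds, 0.82 for Etnppl, 0.76 for Aldh1b1, 0.38 for Hsd17b6 and 0.0005 for Hsd17b13. The samples share libraries, depth and groups, so these values are descriptions. Among 10216 other genes with a mean of 10 TPM or more, the 5 most like the mean of the members were Gm15883 (r = 0.90), Amdhd1 (0.90), Gm15690 (0.88), Fmo5 (0.81) and Ehd3 (0.80). Gm15883 overlaps exons of Cyp2f2 on the other strand, and Gm15690 exons of Sds. Reads were counted without regard to strand and could be assigned to several genes, so the reads of each pair cannot be told apart. Sds also overlaps Plbd2, and Gls2 overlaps Spryd4, in the same way. Amdhd1 was at 346, 146 and 334 TPM in preparations 1, 2 and 3 and at 467, 246 and 243 TPM in livers 1, 2 and 3.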

How the data were processed

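Libraries were prepared with Smart-seq3 from total RNA. The authors aligned reads to mm10 with TopHat2, removed duplicates by molecular identifier and counted exons with featureCounts 1.4.6-p5 without strand, allowing a read to count for several genes. They deposited counts per library, counts summed over the 3 technical libraries, and TPM. The sums equalled the library counts for 100% of values. The authors' corrected TPM removes the mean of the irises times an iris share, estimated by CIBERSORT, from each explant and divides by the rest, with values below 0 set to 0. The deposited column of explant 4 equalled this formula for 16.5% of genes, so the formula was applied here to all explants, with the shares that the deposited values imply. Symbols came from the corrected table.

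Counts were tested with edgeR 4.0.16 (quasi-likelihood test, TMM, filterByExpr) in R 4.3.3. Corrected TPM were tested with limma 3.58.1 (trend) on log2(TPM + 1), in genes with a mean of at least 1 TPM, and fold changes are on that scale, which understates changes of low genes. DESeq2 1.42.0, exact permutation tests (unadjusted, two-sided), other filters, pseudocounts, shares and scalings, and leaving out each sample were alternatives. The fits were tested on simulated data. p-values were adjusted over all genes tested. Promoter windows came from RefSeq. The 8 genes, the lists and the tests were chosen with earlier results of these data known. All 8 genes are reported, with values for up to 4 genes of each list in a comparison. Further partner enzymes were chosen after their values were seen. The 5 most similar genes were taken by rank of correlation. ERCC controls stayed out of library sizes. A second count table without gene identifiers was not used.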

Additional observations from a re-analysis of the deposited data

Results flagged for a closer look

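Explant 2 stood apart from the other 4 explants in 2 members after correction. Sds was at 207 TPM, and its gap to the next explant was 0.945 of the range of the 5 explants. Etnppl was at 54.4 TPM, with a gap of 0.717 of the range. Both exceed 0.71, the critical value of Dixon's test for 5 samples. Chance flags about 1 in 20 groups.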

How the results depend on the processing

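With each sample left out in turn, it ran from 2 to 6 for explants against irises (5 in full), from 0 to 0 for preparations against livers, from 1 to 7 for spheroids against preparations (6), from 6 to 7 for spheroids against livers (7), and, for corrected explants, from 0 to 4 against livers (2), from 0 to 1 against preparations (0) and from 1 to 2 against spheroids (2). The calls over all genes moved with the samples as well. For preparations against livers without preparation 3, 4 of 12763 genes were called higher and 4 lower, so the 0 there says little about the members. A lone remaining spheroid sample was assumed to vary like the other group. Correlations of deviations ran from -0.16 to 0.21 between samples of the same number and from -0.21 to 0.13 between others. With only 2 spheroid samples, their values for same and other numbers mirror each other. Whether the numbers pair the samples could therefore not be decided. With the replicate block, 6 members were called for explants against irises, 0 for preparations against livers, 6 for spheroids against preparations (1 higher, Hsd17b13, and 5 lower, where the fit without the block had 0 higher and 6 lower), 7 for spheroids against livers, and 0, 0 and 2 for corrected explants against livers, preparations and spheroids. With the block, 156 of 20228 genes were called higher and 30 lower for corrected explants against livers. The samples with shared numbers alone, fitted without the block, gave 3, 2, 0 and 1 for explants against irises, spheroids against preparations, and corrected explants against livers and against spheroids. In those fits 545 of 16364, 747 of 12115, 0 of 20228 and 240 of 19908 genes were called higher, and 6, 852, 0 and 43 lower. No gene was called against livers, so the 0 there says nothing about the members. Sds was then at 1.09 on the log2 scale against spheroids, with and without the block, where all samples gave -0.21.

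For spheroids against preparations, no filter called 1 higher and 7 lower, scaling to the reference genes 1 higher and 5 lower, and DESeq2 and library size alone 5 lower. For explants against irises, a single fit of all groups called 3. For preparations against livers, no filter called 1, and leaving out liver 1 and preparation 2 together, chosen after seeing the data, called 2, with log2 fold changes of 0.43 for Cyp2f2, 1.04 for Hal, 0.92 for Sds, 0.25 for Gls2, 0.28 for Aldh1b1, 1.38 for Hsd17b6 and 0.91 for Etnppl. For corrected explants against livers, a pseudocount of 0.1, no filter, shares estimated here, scaling to the reference genes and undoing a limit of 2 counts per base (an allowance for saturated deduplication) each called 1, and the deposited corrected values called 0. Against spheroids, the deposited values called 1. TPM before correction, which include the iris, called 7 lower against livers, 4 lower against preparations, and 3 higher and 1 lower against spheroids. In these fits 8292 of 19764 genes were called higher and 1604 lower against livers. Against preparations 9561 of 19547 were called higher and 1467 lower, and against spheroids 7421 of 19880 higher and 1201 lower. The log2 fold changes were then -1.24 for Hsd17b6 and -1.79 for Hsd17b13 against livers, -0.50 for Aldh1b1, -0.89 for Hsd17b6 and -0.60 for Hsd17b13 against preparations, and -0.60 for Cyp2f2 and -1.01 for Hal against spheroids. With the limit of 2 counts per base undone, Hsd17b13 was at -0.00061 against livers. The cause of the other changes was not tested.

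Directions also changed with 1 sample left out for Etnppl in explants against irises (-0.062 to 0.51), for Cyp2f2 (-0.47 to 0.44), Hal (-0.62 to 0.50), Sds (-1.25 to 0.35), Hsd17b6 (-0.54 to 0.89) and Etnppl (-1.03 to 0.38) in preparations against livers, for Hsd17b13 against livers (-0.058 to 0.14), Aldh1b1 against preparations (-0.33 to 1.71) and Sds against spheroids (-1.91 to 1.48) in corrected explants. None of these was called with all samples. Low counts limit Hsd17b6, Etnppl and Aldh1b1 in spheroids, Sds in the second spheroid sample (14 counts), and Sds in irises and most explants.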
